A study of Mus musculus with 24 samples.

Results

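The lytic granules of a cytotoxic lymphocyte are released by a machinery of which 10 genes were followed here, in CD8+ T cells after and before transfer into mice. The genes are Rab27a, Sytl2, Lyst, Unc13d, Stx11, Stxbp2, Vamp7, Vamp8, Lamp1 and Srgn. They were chosen by name from the gene labels of the array, with earlier results of these data known. No cut on measured values was part of that choice. They are 10 of the 23878 genes with a symbol on the array. They had 13 probes. Of the 10, 5 gave enough signal to be tested, among 9446 tested genes in all.

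The cells were CD8+ T cells of OT-I mice, which carry a transgenic T cell receptor for an ovalbumin peptide. On day 4 they were recovered from blood, liver, lung or small intestine of recipients (5 arrays per site), and on day 0 they were taken from the graft itself (4 arrays, naive cells serving as the control). Recipients were C57Bl/6-Tg(CAG-OVA)-916Jen/J mice, in which a ubiquitous promoter drives ovalbumin, so every tissue holds the antigen. They were given 11 Gy of irradiation in 2 fractions and then 3000000 bone marrow cells and 15000000 splenocytes, a model of acute graft-versus-host disease. Mice were female and 8 to 16 weeks old. Only the OT-I CD8+ T cells carried the CD45.1 allele, and in all 5 groups they were isolated by magnetic selection with an antibody to CD45.1. Both the day 4 and the graft samples were amplified over 2 rounds from 300 pg of RNA. The labels do not say that each sample came from its own animal, so the spread between samples may be partly technical.

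A killer T cell stores perforin and granzymes in secretory lysosomes. After contact with a target these granules move to the contact site, are tethered and docked at the plasma membrane by a small GTPase and its effectors, are primed by a Munc13 protein, and fuse when SNARE proteins of granule and membrane pair under the control of a Sec1/Munc18 protein. Inherited loss of RAB27A, UNC13D, STX11, STXBP2 or LYST in humans impairs this release and causes haemophagocytic disease. In mice and humans a naive CD8+ T cell holds few such granules, and an activated one builds them over days.

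Between 22.6% and 38.6% of gene probes were well above background on an array, a spot flag of the scanner software that marks signal clearly over the local background. Of 10 T cell markers, 9 were well above background on all arrays of every group. Their sum, as a ratio to the 75th percentile of each array, had a median of 527 in blood and 628 in liver. The median was 438 in lung, 339 in intestine and 342 in the graft. All graft arrays were on 1 slide with its own scan day, and no day 4 array was on it. Day 4 against graft and that slide and scan day against the others cannot be told apart. Each of the 5 other slides held 1 array of each site. Intestine 4 had less Cd3e (4.81), Cd8a (2.15) and Cd8b1 (0.84) than any other day 4 array, in log2 units relative to the 75th percentile of the array. Lung 4 lay within the range of the rest for Cd3e and Cd8b1 and just under it for Cd8a (2.90 against 2.93 or more). It had the highest NK cell marker sum at day 4. Calls against the graft that change without intestine 4 are given both ways. No call against the graft changed without lung 4 alone. Markers of other cells also differed between day 4 and graft. Summed over 10 B cell markers, the level, as a ratio to the 75th percentile of each array, was 3.12 to 22.8 at the day 4 sites, against 226 to 285 in the graft. The B cell genes Pax5 and Fcer2a were not well above background on any array of either. Over 15 neutrophil and monocyte markers the sum was 59.8 to 241 at day 4, against 440 to 568 in the graft, with Ly6g, Mmp9 and Ccr2 not well above background anywhere. Sums over 7 NK cell markers were 3.9 to 58.4 at day 4 and 27.4 to 38.7 in the graft. B cells, myeloid cells and NK cells also use several of the genes described here, and the part of these cells in the results was not tested. In such bulk samples fewer cells of a type and less RNA per cell cannot be told apart.

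The genes fell into 3 classes by how often they were measured. Stxbp2, Vamp8, Lamp1 and Srgn were well above background on all 24 arrays. Unc13d was well above background on 17 of 20 day 4 arrays and 2 of 4 graft arrays, so it was tested because of its day 4 signal. Vamp7, Stx11 and Rab27a were measured on 9, 5 and 1 of the 24 arrays, and Lyst and Sytl2 on none. No spot of these probes was saturated.

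**Figure D1:**
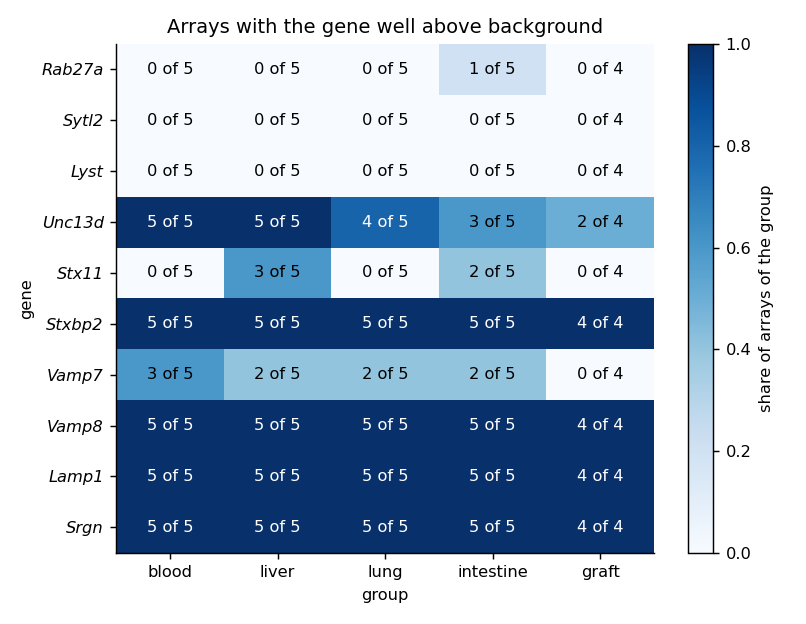
Number of arrays on which each of the 10 genes was well above background, by group (rows, genes by role from docking to granule matrix; columns, groups; colour, share of arrays). Stxbp2, Vamp8, Lamp1 and Srgn fill every column, Vamp7 has 2 or 3 of 5 at each day 4 site, Stx11 has 3 of 5 in liver and 2 of 5 in intestine, both have 0 of 4 in the graft, and Lyst and Sytl2 are at 0 throughout.

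Docking was poorly covered. Rab27a, the GTPase that docks granules at the membrane, has 1 probe (mm9 chromosome 9, 72944668 to 72944727, plus strand), and this was well above background on 1 array, intestine 5. There its level was -0.37, in log2 units relative to the 75th percentile of the array, the scale of all levels below. On the other arrays its signal lay between -3.39 and -1.32 without passing the background flag. Sytl2, a synaptotagmin-like effector that binds GTP-bound Rab27, was not well above background on any of the 24 arrays. The same held for both probes of Lyst, the large BEACH-domain protein whose loss gives giant lysosomes. For these 3 genes the arrays give only an upper bound on the level, and no difference was drawn.

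Stx11, a lipid-anchored SNARE at the site of fusion, was well above background on 3 of 5 liver arrays and 2 of 5 intestine arrays, and on no array of blood, lung or graft. In liver its levels were -0.51, -0.42 and 0.30 on the 3 arrays that measured it and -2.34 and -2.30 on the others. In intestine they were -0.23 and -0.26 on the measured arrays and -1.02, -1.04 and -0.82 on the others. No measured value exists for the other groups, where signals were between -3.22 and -1.77 (blood), -2.99 and -2.02 (lung) or -3.38 and -2.72 (graft). Since no group measured Stx11 on all its arrays, no fold and no test are given.

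Vamp7, a granule SNARE with a longin domain, was well above background on 3 blood arrays and on 2 arrays each of liver, lung and intestine, and on no graft array. Blood had measured levels of 1.23, 0.43 and 0.67 and liver of -0.04 and 1.57. Lung had -0.26 and -0.35, and intestine had 1.23 and -1.43. Arrays of the same site therefore split into measured and unmeasured ones. No group measured Vamp7 on all its arrays, so no fold and no test are given for it either.

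Unc13d encodes the Munc13 protein that primes docked granules for fusion. Its levels were 2.06, 3.16, 3.41, 3.27 and 2.41 in blood and 2.39, 2.85, 3.09, 3.62 and 0.93 in liver. In lung they were 2.63, 1.40, 2.21, 0.00 and 1.54, and in intestine 1.38, -2.41, 2.29, -2.18 and 2.20, against -0.42, -2.60, -0.59 and 0.90 in the graft. Every blood and liver array lay above every graft array, while lung and intestine overlapped with the graft. Lung 4, intestine 2, intestine 4, graft 1 and graft 2 were not well above background and count as low signal only. The mean of the 4 sites was higher than the graft, with a log2 difference of 2.49 ± 0.72 (SE) and a limma adjusted p of 0.00573. By site the difference was 3.54 in blood (adjusted p = 0.00179), 3.25 in liver (adjusted p = 0.00397) and 2.24 in lung (adjusted p = 0.0484). In intestine it was 0.93, with a 95% interval from -0.88 to 2.75 and an adjusted p of 0.421. Without intestine 4 that difference was 1.54 (adjusted p = 0.149). These sizes depend on the signals under background of 2 of the 4 graft arrays. Without graft 2, the lowest graft array, the limma adjusted p for the mean of the sites was 0.0552 with a difference of 1.85. The lung call was lost in 26 of 38 alternative fits, 17 of them fits without a single array, with adjusted p up to 0.218 over all 38.

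A second Unc13d probe, 13520 bases away in mm9 and annotated to another transcript, gave the same direction. Its averages were 1.74 (blood), 1.68 (liver), 0.94 (lung) and 0.26 (intestine), against -0.20 in the graft. Its mean over sites was 1.36 above the graft (limma adjusted p = 0.0222), and 18 of 20 day 4 arrays lay above every graft array. Lung 4 and intestine 4 were the other 2. This smaller difference was called in 3 of 5 other scalings of the arrays, with adjusted p of 0.122 and 0.0994 in the other 2.

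Stxbp2 encodes the Sec1/Munc18 protein that holds syntaxin and lets the SNARE complex form. It had 2 probes that moved in opposite directions, so both are given. The probe with the higher mean (mm9 chromosome 8, 3642653 to 3642712, plus strand) and the run of the second probe (3643399 to 3643458, 746 bases further along the same strand) that recurs on the array are printed because the sign of the Stxbp2 result depends on which is read. The second is shown only over its shared 21 bases, in capitals.
Stxbp2 first probe: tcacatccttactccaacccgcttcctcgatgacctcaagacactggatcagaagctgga
Stxbp2 second probe, shared run: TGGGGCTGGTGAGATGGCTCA
The first probe shares no 16-base word with any other probe of the array and has 2 reading frames without a stop. The second shares such a word with 5 other probes, among them probes for Coa8, Rab33b and Wdr34, and has 0 open frames.

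On the first probe, Stxbp2 levels were 3.68, 4.20, 4.59, 4.68 and 3.98 in blood and 4.15, 4.22, 4.30, 4.63 and 3.59 in liver. Lung arrays had 4.15, 3.32, 2.92, 3.64 and 3.81, and intestine arrays 3.72, 3.46, 4.52, 2.42 and 3.73, against 2.94, 2.85, 2.15 and 3.34 in the graft. All blood and liver arrays lay above all graft arrays, and 17 of 20 day 4 arrays did. The mean of the sites was higher by 1.06 ± 0.28 (SE, limma adjusted p = 0.00326). It was called in blood (1.40, adjusted p = 0.00177) and liver (1.36, adjusted p = 0.00264) and not in lung (0.75, 95% interval 0.03 to 1.46, adjusted p = 0.0951) or intestine (0.75, 95% interval 0.03 to 1.47, adjusted p = 0.0986). Without intestine 4 both were called, intestine with 1.04 (adjusted p = 0.0119) and lung with 0.75 (adjusted p = 0.0497), and without lung 4 as well lung had an adjusted p of 0.0715.

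On the second probe the same gene label gave 3.21, 3.28, 2.71, 3.50 and 3.03 in blood and 3.05, 3.20, 3.28, 3.40 and 3.20 in liver. Lung arrays had 3.11, 3.16, 3.11, 3.05 and 3.54, and intestine arrays 3.17, 2.74, 3.16, 2.96 and 3.13, against 3.85, 3.99, 4.41 and 4.50 in the graft. Here all 20 day 4 arrays lay below all 4 graft arrays. The difference was -1.04 ± 0.16 (SE, limma adjusted p = 1.16e-05), and it was negative and called in each of 5 other scalings, from -1.58 to -0.83. With the probes averaged the Stxbp2 difference was 0.01 (adjusted p = 0.959), so a direction for the gene is given only per probe.

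**Figure D2:**
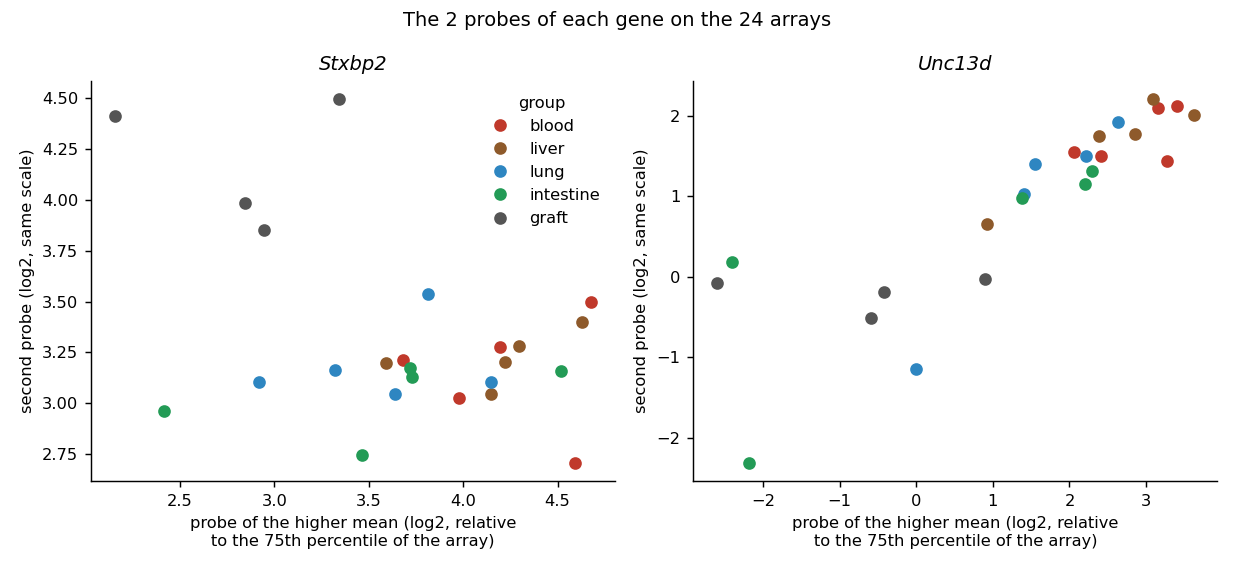
The 2 probes of Stxbp2 (left) and Unc13d (right) on each of the 24 arrays (x, probe with the higher mean; y, second probe; both in log2 units relative to the 75th percentile of the array; colour, group). For Stxbp2 the 4 graft arrays sit at the upper left, at 3.85 or more on the second probe, while for Unc13d the points rise together.

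Vamp8, a SNARE of the granule and endosome membrane, was measured on all arrays by 1 probe (mm9 chromosome 6, 72335520 to 72335579, minus strand). Its levels were 3.04, 3.40, 3.83, 4.10 and 3.32 in blood and 3.60, 3.48, 3.63, 3.76 and 3.62 in liver. Lung arrays had 3.50, 2.81, 3.00, 2.29 and 2.92, and intestine arrays 3.13, 2.67, 3.95, 1.65 and 3.58, against 1.98, 1.79, 1.43 and 1.88 in the graft. Intestine 4 was the single day 4 array within the graft's range, and the other 19 lay above it. Vamp8 rose in the mean of the sites, by 1.50 ± 0.28 (SE) in log2 units or 2.82-fold, with a limma adjusted p of 9.94e-05. Each site was called: blood differed by 1.77 (adjusted p = 0.000158), liver by 1.85 (adjusted p = 0.000111), lung by 1.14 (adjusted p = 0.0109) and intestine by 1.23 (adjusted p = 0.00686). It was also called for the mean of the sites in all 38 alternative fits, with differences from 0.95 to 1.62. In lung it was lost in 1 of 38 alternatives, the scaling to the 75th percentile of detected probes (0.64, adjusted p = 0.15). In intestine it was lost in 1 of 38, the fit to only the arrays compared (adjusted p = 0.0587).

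Lamp1, a heavily glycosylated protein of the lysosome and granule membrane, reaches the cell surface when granules fuse and is widely stained as a degranulation marker. Its levels were 4.43, 5.06, 5.62, 5.78 and 5.33 in blood and 4.78, 5.14, 5.66, 5.60 and 5.43 in liver. Lung arrays had 4.34, 5.12, 5.29, 5.73 and 5.72, and intestine arrays 5.56, 5.84, 6.01, 3.92 and 5.57, against 4.46, 4.47, 4.21 and 4.42 in the graft. Blood 1, lung 1 and intestine 4 were the day 4 arrays that did not exceed the graft, and 17 of 20 did. The mean of the sites was higher by 0.90 ± 0.30 (SE, limma adjusted p = 0.0143), with calls in liver (0.93, adjusted p = 0.0381) and intestine (0.99, adjusted p = 0.0392). The difference was 0.85 in blood (95% interval 0.10 to 1.61, adjusted p = 0.0509) and 0.85 in lung (95% interval 0.09 to 1.60, adjusted p = 0.0726), neither called. Blood was called without blood 1, lung 1, intestine 3 or intestine 4 (adjusted p from 0.0145 to 0.0472), and lung without lung 1 or intestine 4 (adjusted p of 0.0251 and 0.0221). The liver call was lost in 14 of 38 alternatives and the intestine call in 16 of 38, including each fit without 1 graft array, with adjusted p up to 0.577 in liver and 0.123 in intestine.

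Srgn encodes serglycin, the proteoglycan that packs granzymes and perforin in the granule core. Its levels were 4.49, 5.16, 6.36, 6.17 and 6.06 in blood and 5.62, 5.90, 6.07, 6.65 and 6.66 in liver. Lung arrays had 5.58, 5.54, 5.63, 5.21 and 6.05, and intestine arrays 5.94, 6.01, 7.04, 5.03 and 6.29, against 5.14, 4.99, 4.77 and 5.40 in the graft. Liver was the one site whose 5 arrays all exceeded the graft. The mean of the sites was higher by 0.80 ± 0.30 (SE, limma adjusted p = 0.03), called in liver (1.11, adjusted p = 0.0167) and intestine (0.99, adjusted p = 0.0416). It was 0.58 in blood (95% interval -0.19 to 1.34, adjusted p = 0.19) and 0.53 in lung (95% interval -0.24 to 1.30, adjusted p = 0.272). Without blood 1 the blood difference was 0.86 (adjusted p = 0.038). Without graft 1, graft 2 or graft 3 the call for the mean of the sites was lost, with adjusted p of 0.061, 0.0757 and 0.101, and with slide as a random block it was 0.0612. The intestine call was lost in 15 of 38 alternatives (adjusted p up to 0.121).

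**Figure D3:**
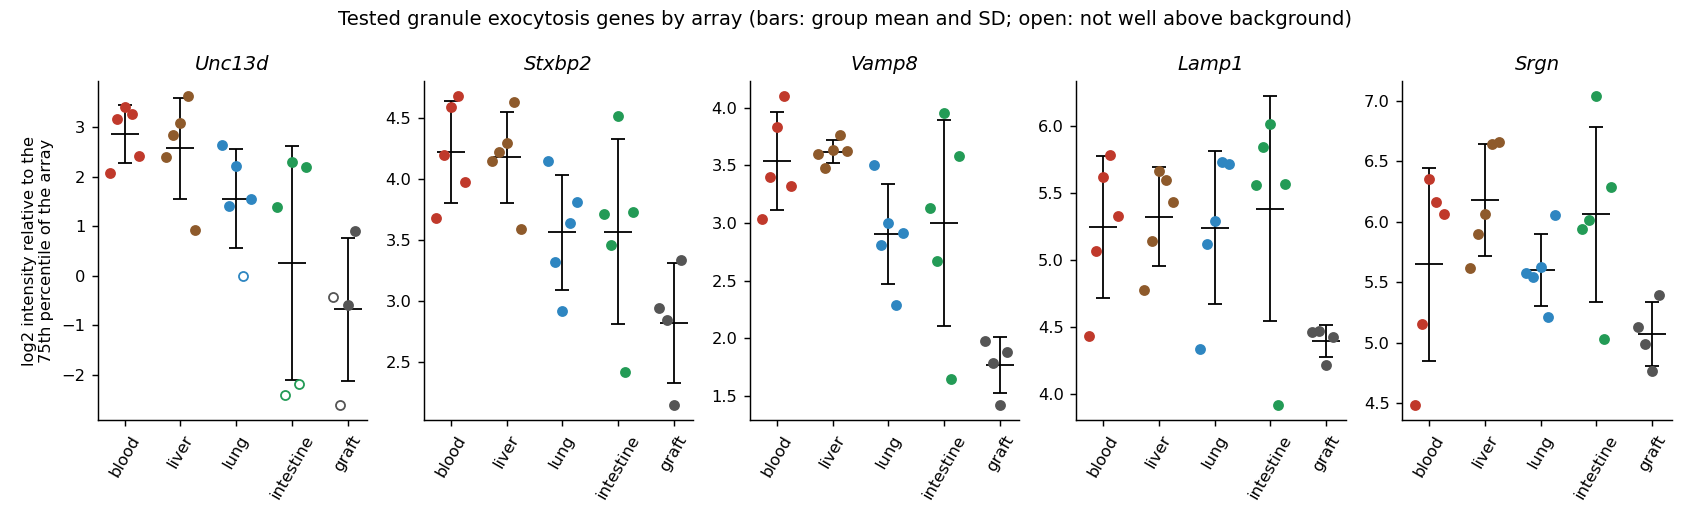
Level of the 5 tested genes on every array, by group (y, log2 intensity relative to the 75th percentile of the array; points, arrays; bars, group mean and SD; open points, not well above background). Vamp8 lies between 1.43 and 1.98 in the graft and above it on 19 of 20 day 4 arrays, and intestine spans the widest range in each of the 5 panels.

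Counted together against the graft, 5 of the 5 tested genes were called higher for the mean of the sites, in a comparison where 34.3% of tested genes were called higher and 53.4% were called either way. By site, 3 of 5 were called higher in blood (35.3% of tested genes), 5 of 5 in liver (34.4%), 2 of 5 in lung (25.8%) and 3 of 5 in intestine (22.1%). Stxbp2 enters these counts on its first probe alone, and its second probe was called lower. None of the other 4 was called lower. Since Unc13d entered through its day 4 signal, and the 5 untested genes lie near background, these counts describe the measured genes and not the set of 10. The median log2 difference of the 5 was 1.06, which is the value of the first Stxbp2 probe, beside 0.23 for all tested genes.

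**Figure D4:**
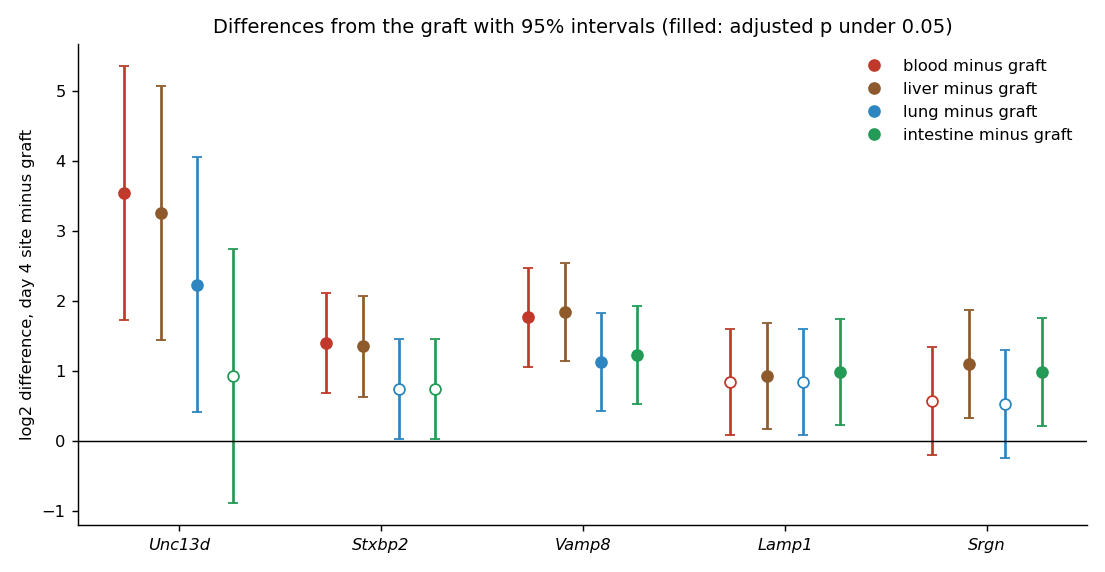
Log2 difference between each day 4 site and the graft for the 5 tested genes (points, limma estimate; lines, 95% interval; filled, adjusted p under 0.05; Stxbp2 on its first probe). Vamp8 is filled at all 4 sites, and Unc13d has its highest estimate in blood (3.54) and its lowest in intestine (0.93).

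The size of these differences depended on how the arrays were brought to a common scale. With arrays scaled to the 75th percentile of the probes detected on all arrays, the median of all tested genes moved to -0.18, and with the median of those probes to -0.32, beside 0.23 in the main scaling. Vamp8 and Unc13d kept their calls in all 5 other scalings, at 0.95 or more and 1.30 or more on the log2 scale. Stxbp2, Lamp1 and Srgn stayed positive but kept their calls only after normexp background correction. In the other 4 scalings the adjusted p ran from 0.0564 to 0.0856 for Stxbp2, from 0.132 to 0.25 for Lamp1 and from 0.137 to 0.373 for Srgn. Relative to the median of all tested genes, in the main scaling Vamp8 was 1.27 higher, Stxbp2 on its first probe 0.84, Lamp1 0.68 and Srgn 0.57. The share of tested genes with a smaller difference was 82.9% for Vamp8, 73.9% for Stxbp2, 70.1% for Lamp1 and 67.4% for Srgn.

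**Figure D5:**
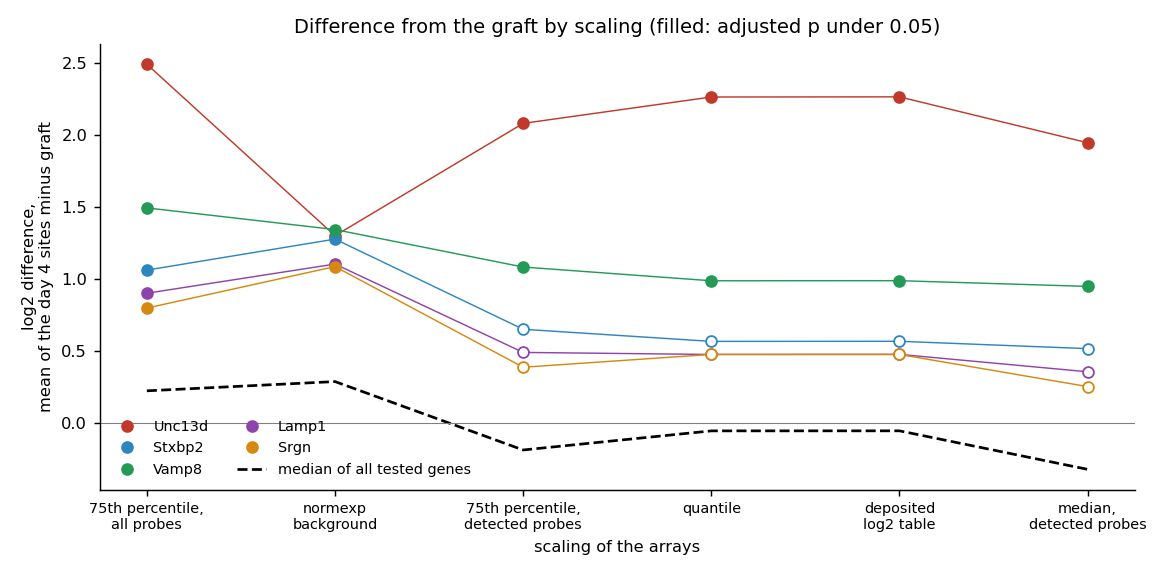
Log2 difference between the mean of the day 4 sites and the graft for the 5 tested genes under 6 scalings of the arrays (x, scaling; lines join a gene's values; filled, adjusted p under 0.05; dashed, median of all tested genes). Unc13d and Vamp8 are filled throughout, while Stxbp2, Lamp1 and Srgn open in 4 of the 6.

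Between sites the genes differed little beyond the spread of the arrays. Unc13d was lower in intestine than in blood (log2 difference -2.61 ± 0.83 SE, limma adjusted p = 0.042), the single call among the 5 tested genes in this pair, where 13.2% of tested genes were called. On the 5 slides that held both sites the difference was -0.68, -5.56, -1.12, -5.46 and -0.22, so intestine was lower on each. The 2 largest come from intestine 2 and intestine 4, which were not above background for this probe. The call ended in 15 of 39 alternatives, among them the fits without intestine 2 (-1.94, adjusted p = 0.14), intestine 4 (adjusted p = 0.141), blood 2, blood 3, blood 4, blood 5 or liver 1, without lung 4 and intestine 4 together (adjusted p = 0.117), and with slide as a fixed block (adjusted p = 0.0518). With slide as a random block it was kept. The second Unc13d probe was lower by 1.48 in intestine than in blood, with every intestine array below every blood array (adjusted p = 0.0759).

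In the other 5 pairs of sites 0 of the 5 tested genes were called. The share of all tested genes called was 0.0% for liver against blood, 1.45% for lung against blood, 0.455% for lung against liver, 0.0% for intestine against liver and 0.381% for intestine against lung. At an unadjusted limma p under 0.05 the 5 genes gave 1 gene each in lung against liver (17.9% of all tested genes) and in intestine against liver (22.8%), and 1 of 5 is near these shares. They gave 0 in liver against blood (3.2% of all tested genes), lung against blood (37.7%) and intestine against lung (8.5%). The intervals were wide. For liver minus blood they ran from -0.72 to 0.63 for Stxbp2, from -0.58 to 0.74 for Vamp8, from -0.63 to 0.79 for Lamp1 from -0.19 to 1.25 for Srgn and, widest, from -2.0 to 1.42 for Unc13d, so changes of up to about that size are not excluded by these arrays. For lung minus liver Vamp8 had -0.71 (95% interval -1.37 to -0.05, adjusted p = 0.257), with lung lower on 5 of 5 shared slides. Calls appeared without single arrays. Without intestine 3 Stxbp2 was called in intestine against blood (-0.89, adjusted p = 0.0465). In that fit 23.6% of all tested genes were called, against 13.2% with all arrays. Unc13d was called in intestine against liver without intestine 3 or intestine 5 (adjusted p of 0.0476 and 0.0327). In those fits 6.89% and 14.3% of all tested genes were called, against 0.0% with all arrays.

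In the order of group means, low to high, Unc13d ran graft, intestine, lung, liver and blood. Stxbp2, on its first probe, ran graft, lung, intestine, liver and blood, and Vamp8 graft, lung, intestine, blood and liver. Lamp1 ran graft, lung, blood, liver and intestine, and Srgn graft, lung, blood, intestine and liver. Of the 20 neighbouring pairs in these 5 orders, lung and graft of Vamp8 (2.90 and 1.77, adjusted p = 0.0109) was the one pair called different.

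Related genes of the fusion machinery moved both ways. Of 21 tested SNARE, Sec1/Munc18 and Munc13 relatives, 9 were called higher and 5 lower for the mean of the sites against the graft, beside 34.3% higher and 19.1% lower among all tested genes. Napa, the adaptor that recruits the ATPase Nsf to SNARE complexes, rose by 1.86 (limma adjusted p = 5.89e-08). The endosomal SNAREs Vamp4 and Stx12 rose by 2.64 and 2.14. Each was unmeasured on all 4 graft arrays and measured on 14 and 16 of 20 day 4 arrays. Both were therefore tested because of their day 4 signal, and these sizes depend on signals under background. Stx7, a SNARE of late endosomes, fell by 2.84, Snap47 by 0.97, Snap29 by 0.81, the plasma membrane syntaxin Stx4a by 0.65 and Vti1b by 0.39. Stx7 was well above background on 15 of 20 day 4 arrays and Snap47 on 5, so both sizes partly depend on signals under background. Napa, Vamp4, Stx12, Stx7 and Snap47 kept their calls in all 38 alternatives, and the other 3 in 32 to 36 of them.

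Among genes around Rab27 more were called lower than higher. Of 16 tested, 2 were called higher and 6 lower, beside 34.3% higher and 19.1% lower among all tested genes. The median of the 16 was -0.55, beside 0.23 for all tested genes. Madd, a nucleotide exchange factor for Rab3 and Rab27, averaged 6.48 at day 4 and 8.17 in the graft and fell by 1.69 (limma adjusted p = 1.52e-06). Rab44 fell by 1.37, Rph3al, a Rab effector, by 1.68 and Rabggta, a subunit of the enzyme that prenylates Rabs, by 0.68. These 4 kept their calls in every alternative that could be run. Rph3al was well above background on 3 of 4 graft arrays and 1 of 20 day 4 arrays, so its size depends on signals under background. Tbc1d10b, a Rab GTPase-activating protein, and Rab11a, a GTPase of recycling endosomes, rose by 0.76 and 0.81 and kept their calls in 1 and 3 of 5 other scalings.

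Among 33 tested genes of the lysosome membrane and of granule biogenesis and transport, 9 were called higher and 5 lower for the mean of the sites against the graft. Both shares are below the 34.3% higher and 19.1% lower among all tested genes. Arl8b, the GTPase that couples lysosomes to kinesin, averaged 1.72 at day 4 and 0.62 in the graft and rose (limma adjusted p = 4e-06). Dtnbp1, a subunit of the BLOC complex, rose by 1.06 and Ap3s1, a subunit of the adaptor that sorts proteins to lysosomes, by 1.31. The lysosomal channel Mcoln1 fell by 1.16, the kinesin light chain Klc1 by 1.05, Tfeb, a transcription factor of lysosome genes, by 0.75, Hps6 by 0.69 and Hps3 by 1.13. Of these 8, Hps3 lost its call in 1 of 38 alternatives and the other 7 in none. Klc1 was well above background on 4 graft arrays and 0 of 20 day 4 arrays, so it was tested because of its graft signal. Hps3 was well above background on 12 of 20 day 4 arrays. The sizes of both depend on signals under background.

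Granule cargo included larger differences, in both directions. Of 18 tested genes, 10 were called higher and 1 lower for the mean of the sites against the graft, beside 34.3% higher and 19.1% lower among all tested genes. Gzmb, granzyme B, averaged 5.29 at day 4 and -1.94 in the graft, where it was well above background on 1 of 4 arrays. It rose by 7.23 (limma adjusted p = 1.08e-09). Gzmb was tested because of its day 4 signal, and this size depends on graft signals under background. Gzmm, granzyme M, averaged -0.67 at day 4, where it was well above background on 9 of 20 arrays, and 3.88 in the graft. It fell by 4.54 (limma adjusted p = 2.58e-08), a size that depends on day 4 signals under background. M6pr and Igf2r, the mannose 6-phosphate receptors that deliver granzymes to lysosomes, rose by 2.06 and 1.46. All 4 kept their calls in each of the 38 alternatives. These 4 were named for their small adjusted p, and the median difference of all 18 tested cargo genes was 0.61. The tested release genes, all given here, had differences of 0.80 to 2.49 and a median of 1.06. The second Stxbp2 probe, outside that range, had -1.04.

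In intestine against blood, 1 SNARE relative was called higher and 1 lower (of 21), 1 Rab27 relative higher and 3 lower (of 16), 4 lysosome genes lower (of 33) and 2 cargo genes lower (of 18), beside 13.2% of all tested genes called either way. Here Prf1, perforin, was lower (log2 difference -2.14, limma adjusted p = 0.0207), Cst7, the cystatin of cytotoxic granules, differed by -1.03 (adjusted p = 0.0473), Nsf by -1.76 (adjusted p = 0.0287) and Stx7 by 1.45 (adjusted p = 0.0475). In the same pair Tbc1d10c differed by -1.64, Tbc1d10b by -0.95, Nbeal2 by -0.88, Bloc1s6 by -1.09 and Vps16 by -0.77, and Syt11 averaged 1.47 in intestine and 3.47 in blood (adjusted p = 0.0294). Of these 10, Tbc1d10c kept its call in 38 of 39 alternatives, Prf1 and Nbeal2 in 34 and Syt11 in 30. Nsf and Bloc1s6 kept theirs in 28, Vps16 in 25, Tbc1d10b in 24, Stx7 in 15 and Cst7 in 13. In the 5 other scalings Nbeal2, Vps16, Tbc1d10b, Stx7 and Cst7 kept their calls in 1 and the rest in 3 to 5. Prf1, Nsf and Stx7 were well above background on 11, 12 and 15 of the 20 day 4 arrays. Prf1 and Nsf averaged -1.47 and -0.92 in intestine, and Stx7 averaged -0.91 in blood. The sizes for Prf1, Nsf and Stx7 may therefore depend on signals under background.

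The genes whose profile over the 24 arrays lay nearest to each tested gene, by the root mean square difference of log2 values after removing each gene's mean, were also found. For Vamp8 they were Plekha2 (0.23) and Sri (0.23), for Stxbp2 on its first probe Mri1 (0.27) and Dpf2 (0.27), for Srgn Bri3 (0.24) and B2m (0.29), for Lamp1 Ctsb (0.32) and Arpc3 (0.35), and for Unc13d Sirt6 (0.60) and Rnf113a2 (0.70). The nearest pair among the 5 genes themselves was Stxbp2 and Vamp8, at 0.34. These distances share the scaling and amplification of each array and are descriptions.

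Promoters were looked up in RefSeq (GRCm38.p6), which gave windows of 250 bases before to 50 after the start for 7 of the 10 genes. Each was searched on both strands for CACGTG, a palindrome and the core of the E-box read by Tfeb and its relatives. The motif was in 7.15% of all 32851 promoters of this length. Of the 5 tested genes, Lamp1 held 4 copies and Stxbp2 held 1, and the Vamp8 and Srgn windows held 0, while Unc13d had no window. Of the untested genes, Rab27a held 1 copy in 1 of its 2 windows, and Stx11 and Lyst held 0. The Lamp1 and Stxbp2 promoters are shown with the motif in capitals, because Lamp1 is among the 0.0244% of promoters with at least 4 copies. The Lamp1 window is chr8:13158911-13159210 and the Stxbp2 window chr8:3630859-3631158, both plus strand of GRCm38.p6.
Lamp1 promoter: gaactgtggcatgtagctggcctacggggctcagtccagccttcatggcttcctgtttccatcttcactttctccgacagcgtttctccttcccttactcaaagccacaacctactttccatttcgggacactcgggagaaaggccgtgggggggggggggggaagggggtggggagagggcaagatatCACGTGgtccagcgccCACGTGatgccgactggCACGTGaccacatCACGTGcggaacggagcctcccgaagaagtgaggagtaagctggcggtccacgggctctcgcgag
Stxbp2 promoter: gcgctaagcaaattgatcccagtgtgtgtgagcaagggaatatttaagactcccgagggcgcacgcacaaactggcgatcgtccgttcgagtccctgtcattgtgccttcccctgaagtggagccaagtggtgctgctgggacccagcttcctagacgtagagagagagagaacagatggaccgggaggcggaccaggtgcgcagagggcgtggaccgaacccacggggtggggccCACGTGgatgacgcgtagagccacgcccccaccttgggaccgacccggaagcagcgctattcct
A match describes these letters and not a bound site. The log2 difference between day 4 and graft was 0.90 for Lamp1 and -0.75 for Tfeb RNA, and a link between them was not tested.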

How the data were processed

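Per the labels' protocols, RNA of magnetically selected T cells was amplified, labelled with Cy3 and hybridised to 24 one-colour Agilent arrays. For each array the authors deposited the scanner output, in which the processed signal is a background-subtracted, linear intensity. The software was Agilent Feature Extraction 9.5.1.1 per the file headers and 10.7 per the submitters' processing notes. Log2 values of the same arrays, deposited by the authors as a table, entered as an alternative. Across probes it correlated at 0.984 or more on every array with quantile-normalised log2 signal centred per probe, with column medians from -0.03 to 0.028. Its scale and centring come from this comparison, not from a label.

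Each array had 44397 spots, 1377 of them controls, and 39429 gene probes. The main value was log2 of the processed signal minus the 75th percentile of the array over gene probes, after control spots and non-uniform spots were left out and spots of a probe averaged. Names came from the array's labels, updated through the RefSeq table by accession for 27508 probes, by symbol for 3544 and by synonym for 404. A probe was tested if well above background on all or all but 1 array of a group (11273 probes), and each of 9446 genes was represented by its probe of highest mean. limma 3.58.1 in R 4.3.3 fitted all 24 arrays with 5 group means and 11 contrasts. Calls are at a Benjamini-Hochberg adjusted p under 0.05 over all tested genes. The fit was tested on simulated data.

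Named genes were all 10 members and the 2 nearest profiles of each tested member. From each of 4 related lists came up to 4 called genes with the smallest adjusted p and up to 3 called between sites. Called genes that moved against most called genes of their own list were added. The members, lists and tests were chosen with earlier results of these data known. Sums of cell type markers used all markers on the array: T cell, B cell, neutrophil and monocyte, macrophage, NK cell, mast cell and basophil, platelet, erythroid, hepatocyte, lung epithelium and intestinal epithelium. Alternatives changed the scaling, background correction, filter, choice of probe, weights, slide or replicate block, and left out each array in turn. The number of arrays limits the precision.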

Additional observations from a re-analysis of the deposited data

Results flagged for a closer look

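Values that stood out within a group or between sites are given here. Of 35 groups tested for a single array far from the rest, 3 were flagged, and chance flags about 1 in 20 groups. Lamp1 was 3.92 on intestine 4, while the other intestine arrays lay from 5.56 to 6.01 (log2 units relative to the 75th percentile of the array). On the same array the T cell marker sum was 213, the lowest of the 24 arrays. Lamp1 was 4.21 on graft 3, with the other graft arrays from 4.42 to 4.47. The second Stxbp2 probe was 3.54 on lung 5, with the other lung arrays from 3.05 to 3.16. Without lung 4 and intestine 4 the count of members called against the graft was 4 in blood, 5 in liver, 2 in lung, 4 in intestine and 5 for the mean of the sites, against 3, 5, 2, 3 and 5 with them.

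Unc13d differed between 2 sites, with intestine lower than blood by a log2 difference of -2.61 in the limma fit (adjusted p = 0.042, lower on 5 of 5 slides). This value rests on 2 intestine arrays that were not well above background.

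Marker sums of the other lists, as ratios to the 75th percentile, were also taken. Macrophage markers summed to 2.37 to 146 at day 4 and 14.1 to 52.9 in the graft. Platelet markers summed to 4.08 to 38.2 at day 4 and 4.87 to 14.8 in the graft, and mast cell and basophil markers to 0.88 to 3.41 at day 4 and 5.99 to 8.68 in the graft. The median erythroid sum of a site lay between 1.01 and 1.57 at day 4 and was 16.3 in the graft, where single arrays ran from 3.04 to 193. Lung epithelium markers summed to 2.43 to 147 in lung and to 2.25 or less elsewhere, and intestinal epithelium markers to 0.619 to 19.4 in intestine. Hepatocyte markers summed to 2.85 or less in every group, with Alb and Ttr at no point well above background. Lung 4 had 134 for macrophage and 58.4 for NK cell markers. The part of these cells in the results was not tested.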

How the results depend on the processing

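No alternative fit reversed a called value, but the sign of Stxbp2 differed between its 2 probes, both called. The count of the 5 tested genes called was 3 in blood against graft, 5 in liver, 2 in lung and 3 in intestine. It was 5 for the mean of the sites and 1 in intestine against blood. The share of all tested genes called was 56.5%, 50.4%, 37.4%, 34.9%, 53.4% and 13.2% in the same order. Shares of this kind are in brackets below. With the 75th percentile of detected probes these were 2 in liver, 0 in lung, 1 in intestine, 2 for the mean and 0 in intestine against blood. With the median of detected probes they were 2, 1, 1, 2 and 0 (55.0%, 42.7%, 39.9%, 60.1% and 5.1%). With the deposited log2 values or quantile normalization they were 3, 1, 1, 2 and 0 (47.8%, 38.7%, 37.8%, 53.8% and 7.6%). Normexp gave 5 in blood (57.5%) and 1 in lung (33.7%). Lung had 1 with no filter on dim probes (13.3%), with averaged probes (37.7%) and with slide as a random block (32.4%). Intestine had 1 with slide as a random block (29.8%). Array weights gave 4 in lung (53.1%), 5 in intestine (57.3%) and 2 in intestine against liver (34.0%). Fitting only the arrays compared gave 0 in intestine against graft (26.0%) and 0 against blood (1.67%). Intestine against blood had 0 also with slide as a fixed block (9.58%) or without lung 4 and intestine 4 (6.75%). Leaving out 1 array gave 3 to 5 in blood, 1 to 4 in lung, 1 to 4 in intestine and 3 to 5 for the mean. It gave 0 to 2 in intestine against blood and 0 to 1 in intestine against liver. In these fits the share of all tested genes called ran from 49.8% to 59.6% in blood and 30.8% to 41.3% in lung. It ran from 28.9% to 40.4% in intestine and 44.7% to 58.1% for the mean. Intestine against blood had 2.94% to 31.1% and intestine against liver 0.0% to 14.3%. The cause of these shifts was not tested. The replicate block gave 1 in lung (36.3%) and 1 in intestine against graft (34.4%). Residuals of same-numbered day 4 arrays correlated from -0.37 to 0.56. Differently numbered arrays were not compared, so this cannot decide whether the numbers pair the samples. Each number also shares a slide. Lists kept their counts within a range of 6 to 9 higher and 2 to 8 lower for SNARE relatives, 0 to 4 and 4 to 10 for Rab27 relatives, 5 to 15 and 4 to 13 for the lysosome and 5 to 11 and 1 to 2 for cargo. Faint signal limits Rab27a, Sytl2, Lyst, Stx11 and Vamp7, for which a change may be present and unmeasured.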
